A study of Mus musculus with 1536 samples.

Results

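Serotonin neurons of the mouse raphe nuclei differ from each other in the transcription factor genes they express, and 7 such genes, Npas1, Npas3, Irx2, Zfp536, Sox1, Sox13 and Aff2, are described here across 999 single cells. The 7 were listed by name out of 53263 genes in the deposited table, and they were selected on measured values of these same cells: the cells with a read, their overlap, the dissection and plate, and the genes correlated with them. All 7 are among the 25522 genes with a read in at least 3 cells. The values below are therefore a description of these cells, and no test of the choice of genes is given.

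The cells came from Sert-Cre;Ai14 mice on a C57BL/6J background, aged 40 to 45 days, in which Cre under control of the serotonin transporter gene switches on the red fluorescent protein tdTomato. Fluorescent cells were sorted one to a well and sequenced by Smart-seq2, a full-length method without molecular identifiers. Every cell in both groups carries both alleles. The Principal DR group is a dissection of the principal dorsal raphe (290 cells, 5 plates). The All DR group is labelled as all of the dorsal raphe (709 cells, 11 plates), and by the study's methods this dissection also took in the median raphe. A Cre reporter stays on in any cell that once made Cre, so fluorescence alone does not show the present level of the transporter. The labels name no animal for a cell, so each dissection was counted as 1 sample, and cells gave no p-value. Where a 95% interval is given it is an exact Clopper-Pearson interval, which covers counting error only, and the spread between plates is given beside it. For a count of 0 cells the limit given is instead 3 divided by the number of cells. This lies below the upper end of the exact interval, for example 2.70% against 3.27% for 0 of 111 cells.

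The 7 genes belong to 5 families of nuclear regulators. Npas1 and Npas3 are bHLH-PAS factors, which bind DNA as a dimer with a partner of the Arnt type. Irx2 is an Iroquois homeobox factor, a family best known for patterning the neural tube and other tissues along the body axes. Zfp536 is a zinc finger factor known to hold back neuronal differentiation driven by retinoic acid receptors. Sox1 is a SoxB factor of neural progenitors that some mature neurons keep, and Sox13 is a SoxD factor that lacks an activation domain of its own. Aff2 is an AF4/FMR2 nuclear protein whose human counterpart is the gene silenced at the FRAXE fragile site.

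The 999 cells had between 96834 and 2780443 reads on genes, with a median of 827283, and the medians were 755926 in Principal DR and 869546 in All DR. A median of 9554 genes had a read in a cell. The label of serotonin neuron was borne out by markers other than Tph2. Fev, the factor that sets serotonergic identity, had a read in 100% of cells, and the transporter Slc6a4 had one in 99.8%. Tph2, the brain enzyme that starts serotonin synthesis, also had a read in 100%. That share was fixed beforehand, since a read of Tph2 was required here and the study describes its 999 cells as Tph2-positive. A share of 3.2% of cells (32 of 999, 18 of them Principal DR) had reads of most genes of a list of oligodendrocyte, oligodendrocyte precursor, astrocyte, microglia or endothelial markers. The summed level of the 8 oligodendrocyte markers ranged from 0 to 79546 CPM with a median of 107, whereas the medians of the other 4 lists were 0. CPM is the read count of a gene scaled to the same total of reads on genes in every cell. The summed level of 6 immediate-early genes, which rise with neuronal activity and with cell dissociation, had a median of 55.9 CPM in Principal DR and 167 CPM in All DR. Whether this difference bears on the comparisons of dissections was not tested.

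In the GENCODE annotation on mm10, Npas1 lies on chr7:16455721-16477728 on the minus strand, and Npas3 on chr12:53248677-54072175 on the plus strand. Irx2 is a compact gene at chr13:72628820-72634198 (plus strand), and Zfp536 covers chr7:37472135-37773641 (minus strand). Sox1 is a gene of a single exon block at chr8:12395295-12400126 (plus strand), Sox13 lies at chr1:133382303-133424377 (minus strand), and Aff2 spans chrX:69360294-69868037 (plus strand). The authors' reads were counted without regard to strand, so reads in stretches shared with a gene on the other strand cannot be told apart. Exons of Npas3 shared 83 bases (1.38% of its exon bases) with 1700060O08Rik, and those of Aff2 shared 48 bases (0.661%) with Gm14705. Sox1 shared 86 bases (1.78%) with the miRNA gene Gm25239. It also lies inside the long transcript Sox1ot without sharing an exon base. Sox1ot had a read in 41.0% of all cells, in 65.7% of the cells with a read of Sox1 and in 21.2% of those without. The exons of Irx2, Npas1, Sox13 and Zfp536 shared no base with those of another annotated gene.

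Npas1 and Npas3 moved together across cells (below), so the 250 bases before the RefSeq start of each are shown, from 5′ to 3′ on the strand of the gene, on GRCm38.p6. They are chr7:16476781-16477030 for Npas1 and chr12:53248182-53248431 for Npas3. The capitals mark ACGTG, the core bound by many bHLH-PAS dimers, or its reverse complement CACGT.
Npas1: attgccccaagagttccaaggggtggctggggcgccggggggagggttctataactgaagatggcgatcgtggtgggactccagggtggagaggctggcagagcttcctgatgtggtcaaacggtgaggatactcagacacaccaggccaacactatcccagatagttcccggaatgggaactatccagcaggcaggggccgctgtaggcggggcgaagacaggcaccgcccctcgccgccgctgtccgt
Npas3: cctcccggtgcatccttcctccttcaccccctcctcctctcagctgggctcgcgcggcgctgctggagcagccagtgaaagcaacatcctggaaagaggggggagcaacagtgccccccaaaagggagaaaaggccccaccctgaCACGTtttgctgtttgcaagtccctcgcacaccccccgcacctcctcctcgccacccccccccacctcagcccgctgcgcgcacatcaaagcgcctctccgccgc
The Npas3 window holds 1 such match, 105 bases before the start, and the Npas1 window holds none. These 5 letters occur on either strand in 16.6% of 32851 promoter windows of the same length (5444) and in those of 3 of the 7 genes, Npas3, Irx2 and Aff2. ACAAT, the core of the Sox motif, occurs on either strand in 27.7% of windows (9086) and in 0 of the 7. A match is a description of letters only. The Npas1 window lies inside the longer GENCODE gene body, without overlap with its exons, since GENCODE places the start of Npas1 further upstream. Other windows overlap GENCODE exons of their gene, in 224 of the 250 bases for Sox1, 210 for Zfp536, 165 for Sox13 and 37 for Aff2. The motif counts of the 7 genes are thus not all counts of sequence upstream of every annotated start.

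Levels of different genes were compared only per kilobase of exon. Over all cells Npas1 had the highest mean, 2.88 CPM per kb (plates 0 to 5.43), followed by Irx2 with 1.88 (plates 0 to 5.80). Sox1 had 1.24 CPM per kb (plates 0.520 to 1.85), Aff2 1.04 (plates 0.461 to 1.69) and Npas3 0.884 (plates 0.292 to 1.99). Zfp536 had 0.382 CPM per kb (plates 0 to 0.931) and Sox13 0.301 (plates 0.0665 to 0.716). The plate ranges of every pair of neighbours in this order overlapped. Npas3 stood above Zfp536 on 14 of 16 plates, while each other gene stood above the next on 9 to 11 of 16. The order by level was not the order by share of cells. Npas1 had the highest mean although it had the fewest positive cells: the cells with a read of it had 31.3 CPM per kb, against 11.4 for Irx2 and 1.97 to 2.81 for the other 5 genes.

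Npas1 had a read in 92 of 999 cells (9.21%, 95% interval 7.49 to 11.2), and the median of those cells was 60.5 reads, or 75.9 CPM. Npas3 had a read in 401 cells (40.1%, 37.1 to 43.3) at a median of 7 reads. Irx2 was found in 164 cells (16.4%, 14.2 to 18.9) at a median of 23 reads, and Zfp536 in 136 cells (13.6%, 11.5 to 15.9) at 14 reads. Npas1 and Irx2 were thus read many times in the cells that had them, and Npas3 and the Sox genes only a few times. Sox1 was found in 446 cells (44.6%, 41.5 to 47.8) at a median of 9 reads, Sox13 in 153 cells (15.3%, 13.1 to 17.7) at 5 reads, and Aff2 in 465 cells (46.5%, 43.4 to 49.7) at 9 reads. Among positive cells, 39.9% had 1 to 3 reads for Sox13 and 31.9% for Npas3, against 6.10% for Irx2 and 14.1% for Npas1. At this depth the shares for Sox13 and Npas3 therefore depend on where a cell is called positive.

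A cell had a read of up to 6 of the 7 genes. None was found in 123 cells, 1 in 253, 2 in 356, 3 in 193, 4 in 60, 5 in 11 and 6 in 3 cells.

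Irx2 separated the dissections. In Principal DR it had a read in 10 of 290 cells (3.45%, 1.67 to 6.25), and its plate shares were 2.15% on plate 12, 7.06% on plate 13, 4.65% on plate 25, 0% on plate 39 and 0% on plate 40. With no positive cell, the share on plate 39 (28 cells) may still be as high as 10.7% and that on plate 40 (41 cells) as high as 7.32%. In All DR it had a read in 154 of 709 cells (21.7%, 18.7 to 24.9), with plates between 13.2% and 36.7% and a median of 22.5%. Every All DR plate was above every Principal DR plate. Plates separated in this direction for 0.838% of all genes. Its mean was 0.595 CPM in Principal DR (plates 0 to 1.32) and 8.44 CPM in All DR (plates 3.30 to 19.0), which is 14.2-fold higher in All DR. Plate means separated in this direction for 2.54% of genes and in the opposite one for 2.43%. On the scale of log2 of mean CPM plus 1, the difference Principal DR minus All DR was -2.56.

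Irx2 was the only one of the 7 past a 2-fold difference on that scale. Of 25522 genes, 2.44% were past it (622 genes), 0.901% being higher in All DR and 1.54% higher in Principal DR. Zfp536 came nearest among the others, with 5.54 CPM in Principal DR (plates 3.61 to 8.58) and 2.70 CPM in All DR (plates 0 to 6.62), a log2 difference of 0.82. Its share of cells was 20.7% in Principal DR, where plates 12, 13, 25, 39 and 40 had 23.7%, 16.5%, 20.9%, 35.7% and 12.2%. It was 10.7% in All DR, with a lowest plate of 0%, a median of 10.0% and a highest of 20.0%. The plates of both dissections overlapped. The plate with no Zfp536 read held 76 cells, so the share may be as high as 3.95%.

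Npas3 had a read in 47.9% of Principal DR cells (plates 37.2 to 57.6%) and 37.0% of All DR cells (plates 14.8 to 46.8%), with means of 7.12 and 4.57 CPM and a log2 difference of 0.54. Aff2 had one in 57.2% (plates 43.9 to 67.1%) and 42.2% (plates 29.6 to 50.6%), with means of 9.60 and 6.75 CPM and a log2 difference of 0.45. The plates overlapped in both genes. Sox1 had a read in 57.9% of Principal DR cells and 39.2% of All DR cells, and its plates did not overlap: the lowest Principal DR plate was at 46.3% and the highest All DR plate just under it, at 46.25%. Plates separated in this direction for 1.07% of genes. The Sox1 level did not follow. Its means were 6.55 and 5.76 CPM, the log2 difference was 0.16, and the plate medians of 5.26 and 5.53 CPM went the other way, so no order of the dissections is read from the Sox1 share. Cells with a read of Sox1 had a median of 892270 reads on genes, against 769015 in those without.

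Npas1 and Sox13 differed least between the dissections in their shares. Npas1 had a read in 10.0% of Principal DR cells, with 5.38%, 10.6%, 14.0%, 10.7% and 14.6% on plates 12, 13, 25, 39 and 40. In All DR it had one in 8.89% of cells, with a lowest plate of 0%, a median of 7.5% and a highest of 16.7%. The log2 difference of its mean CPM was 0.35. Sox13 had a read in 16.9% of Principal DR cells (plates 11.6 to 24.4%) and 14.7% of All DR cells (plates 5.77 to 26.8%), a log2 difference of 0.21. With every cell thinned to 250000 reads, which left out 1 Principal DR and 8 All DR cells, the shares in Principal DR and All DR were 2.77 and 20.8% for Irx2, 18.3 and 9.42% for Zfp536, 40.5 and 29.7% for Npas3, and 50.2 and 35.2% for Aff2. They were 46.0 and 35.2% for Sox1, 8.65 and 8.42% for Npas1, and 13.5 and 10.8% for Sox13. The direction between dissections was the same as unthinned for all 7 genes. Leaving out the 32 cells with reads of other cell types was an alternative chosen after seeing the data. Without them the share of each gene over both dissections together stayed within its interval. Each log2 difference between dissections stayed on its side of the 2-fold line. Shares by dissection were not computed without these cells.

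**Figure D1:**
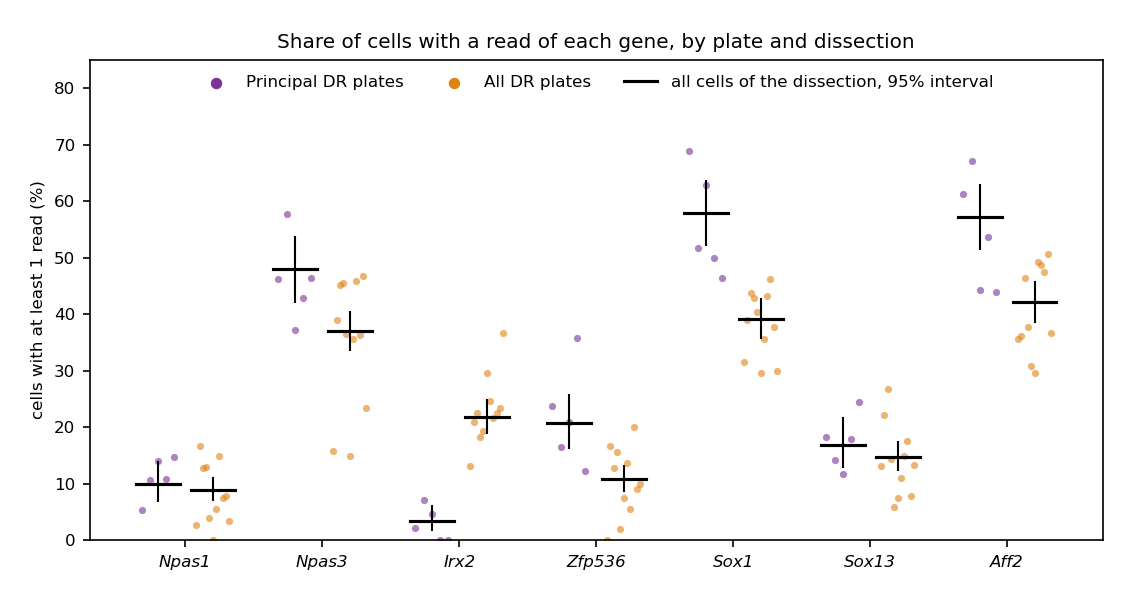
Share of cells with at least 1 read (%, vertical axis) of each of the 7 genes, with 1 point for each plate (5 Principal DR plates, 11 All DR plates), a bar for all cells of the dissection and its 95% Clopper-Pearson interval. For Irx2 the Principal DR plates lie between 0 and 7.06% and every All DR plate lies above them, whereas the plates of Npas1 and Sox13 overlap widely.

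Where in the population each gene was found was examined in 12 clusters of cells, computed without the 7 genes and the other genes of their families (57 genes held out). Clusters are called by number and leading gene. Cluster 4, led by Piezo2, Pter and C1ql3, is MR-4-like and cluster 12, led by Tecrl, S1pr3 and Tacr3, is cDR-like by the marker lists used, after types of the median raphe (MR) and the caudal dorsal raphe (cDR). The others are not named here. Clusters 2, 7 and 8 were mostly Principal DR cells (112 of 132, 61 of 76 and 45 of 51), and clusters 4 and 9 had only All DR cells (111 and 44). Clusters 6 and 8 shared the leading genes Sema5a, Nell1 and Dlk1, and they divided by dissection: 95 of the 97 cells of cluster 6 were All DR. Since clusters rest on the same cells, levels by cluster are a description.

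**Figure D2:**
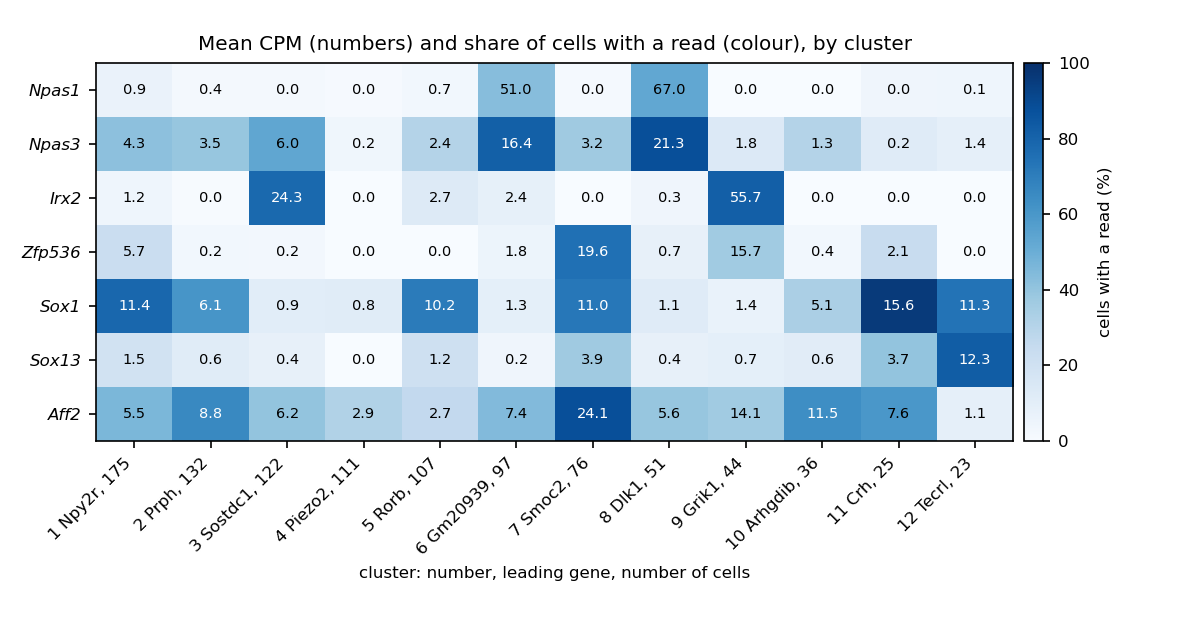
Mean CPM (numbers) and share of cells with a read (colour, %) of the 7 genes (rows) in 12 clusters (columns, with number, leading gene and number of cells). Npas1 is high in clusters 6 and 8 alone (51.0 and 67.0 CPM), Irx2 in clusters 3 and 9 (24.3 and 55.7 CPM), Zfp536 and Aff2 are highest in cluster 7 (19.6 and 24.1 CPM), and Sox13 in cluster 12 (12.3 CPM).

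Npas1 and Npas3, the bHLH-PAS pair, were found in the same cells. Of the 92 cells with a read of Npas1, 73 (79.3%, 69.6 to 87.1) had a read of Npas3, against 36.2% of the 907 cells without Npas1. The share was higher in the Npas1 cells on 10 of 10 plates with at least 5 cells on each side. It was so in both dissections, at 86.2% against 43.7% in Principal DR and 76.2% against 33.1% in All DR. Seen from the other side, 18.2% of Npas3 cells and 3.18% of the rest had Npas1. The correlation of ln(CPM+1) after subtracting the mean of each plate was 0.34 over the 999 cells, and above 0 on 14 of the 15 plates with a read of both. It was the largest of the 21 pairs among the 7 genes. Cells of a plate share a library preparation and differ in depth, and correlations are given with no p.

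The shared cells lay in clusters 6 and 8. Npas1 averaged 51.0 CPM in cluster 6 (42 of 97 cells with a read) and 67.0 CPM in cluster 8 (27 of 51 cells), and at most 0.912 CPM in any other cluster. Together the 148 cells of these clusters held 75% of Npas1-positive cells and 96.6% of all Npas1 signal. The pattern held in both dissections: 23 of 45 Principal DR cells of cluster 8 had a read (65.8 CPM), as did 42 of 95 All DR cells of cluster 6 (52.1 CPM). In clusters 9 and 10 no cell of 80 had a read, so the share may be as high as 3.75%.

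Npas3 was broader. It averaged 16.4 CPM in cluster 6 (81.4% of cells) and 21.3 CPM in cluster 8 (88.2%), but also 5.99 CPM in cluster 3 (53.3%) and 4.31 CPM in cluster 1 (41.7%). Clusters 6 and 8 held 30.9% of its positive cells and 50.4% of its signal. Its lowest share was in the MR-4-like cluster 4, where 4 of 111 cells had a read. Inside clusters 6 and 8 the overlap with Npas1 was not visible: Npas3 had a read in 59 of 69 Npas1 cells (85.5%) and 65 of 79 cells without Npas1 (82.3%), and the intervals overlapped. Outside them it was found in 14 of 23 Npas1 cells (60.9%, 38.5 to 80.3) and 263 of 828 others (31.8%, 28.6 to 35.1).

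The genes nearest to Npas1 within plates, among 8087 genes with a mean over 10 CPM, were Fam114a1 (r = 0.44), Nell1 (0.38), Sema5a (0.35), Calcr (0.32) and Dlk1 (0.32). Fam114a1, a gene of little known function, averaged 80.6 CPM in Npas1 cells and 16.1 CPM in the others. Nell1, a secreted glycoprotein, averaged 131 and 29.8 CPM, and Calcr, the calcitonin receptor, 158 and 48.7 CPM. Sema5a, a semaphorin that guides axons, averaged 88.7 and 24.1 CPM, and it was the only one of the 5 with r above 0 on all 15 plates. The lowest r belonged to Tenm2 (-0.41), a teneurin that joins synaptic partners, which averaged 17.7 CPM in Npas1 cells and 52.2 CPM in the others, and to the nuclear factor Tox (-0.36). For Npas1, 9 of the 8087 genes had r of at least 0.3 and 4 had r of -0.3 or lower.

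The genes nearest to Npas3 were Gabre (r = 0.40), a GABA-A receptor subunit, Htr1d (0.40), a serotonin autoreceptor, Sema5a (0.39), the cadherin Cdh11 (0.36) and Syndig1l (0.36). Htr1d averaged 65.2 CPM in Npas3 cells and 28.9 CPM in the others, and Gabre 18.0 and 7.08 CPM. The r of Gabre, Htr1d and Sema5a was above 0 on all 16 plates. Nbl1, a secreted BMP antagonist, had the lowest r (-0.37; 73.6 against 147 CPM), followed by Tox (-0.31). Sema5a and Tox therefore stood in the lists of both Npas genes. For Npas3, 12 genes had r of at least 0.3 and 2 had -0.3 or lower.

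Cells were then divided by which of the pair they had: both (73 cells), Npas1 only (19), Npas3 only (328) or neither (579). The genes compared were picked by their correlation with Npas1 or Npas3 in these same cells. A higher level with that factor therefore follows from the choice. Fam114a1, picked by Npas1, had means of 88.0 CPM with both, 52.3 with Npas1 only, 13.4 with Npas3 only and 17.7 with neither. Nell1 was at 131 CPM both with the pair and with Npas1 only, at 46.1 with Npas3 only and at 20.6 with neither. Htr1d was at 98.8 CPM with both, at 56.9 and 57.7 CPM with either alone, and at 28.0 with neither, and Sema5a ran 94.0, 68.4, 38.4 and 15.9 CPM over the same classes. The 19 cells with Npas1 only are few, and none of the plates held 5 of them.

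**Figure D3:**
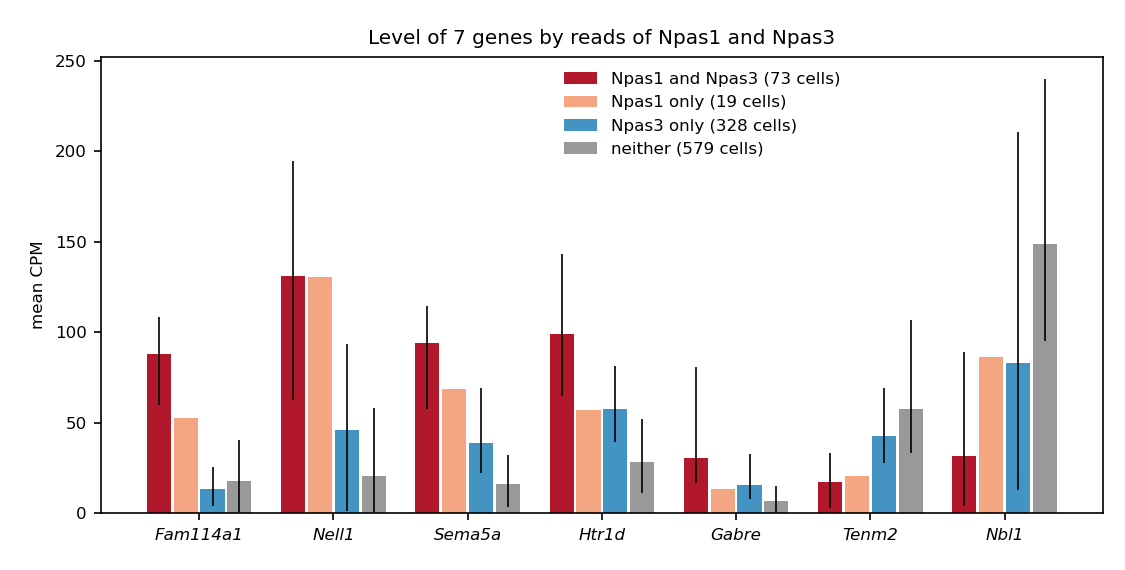
Mean CPM (vertical axis) of 7 genes in cells with Npas1 and Npas3 (73 cells), Npas1 only (19), Npas3 only (328) or neither (579). Lines show the lowest and highest plate mean over plates with at least 5 such cells, and the class with Npas1 only has none. Fam114a1 is high in the classes with Npas1 (88.0 and 52.3 CPM) and at 13.4 and 17.7 CPM in the rest, while Htr1d and Sema5a step up from neither to both. The 7 genes were picked by their correlation with Npas1 or Npas3 in these same cells.

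Transmitter, peptide and receptor genes were compared between cells with and without a read of each factor, and a gene was called where log2 of mean CPM plus 1 differed by at least 1 with the same direction on every plate tested. For Npas1 (10 plates) 0.6% of genes were called. Of 11 transmitter and peptide genes 0 were called higher and 3 lower, with a list median of -0.78 against -0.02 over all genes. Gad1, a GABA-synthesizing enzyme, averaged 6.65 CPM in Npas1 cells and 58.2 CPM in the others. Pdyn, the dynorphin precursor, averaged 4.66 and 51.5 CPM, and Crh, corticotropin-releasing hormone, 1.71 and 4.84 CPM. Of 14 receptor genes, Htr1d was called higher (90.1 against 38.8 CPM) and Crhr2, a receptor for Crh-family peptides, lower (10.9 against 26.4 CPM).

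For Npas3 (15 plates; 0.0431% of genes called) none of the 11 transmitter and peptide genes was called, at a list median of -0.45. Of 14 receptor genes 2 were called, both higher: Htr1d (log2 difference 1.15) and Pth2r, a parathyroid hormone family receptor (16.4 against 4.39 CPM, 1.69). None of 10 serotonin identity genes was called for either Npas gene. The summed immediate-early level had a median of 51.4 CPM in Npas1 cells and 146 CPM in the others, and its part in these differences was not tested.

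Of the 4 partners of the Npas factors, 3 had a read in more cells than Npas3. Arnt2, the partner form of neurons, had a read in 80.3% of cells and Arnt in 68.7%. The clock form Arntl had one in 61.6% and Arntl2 in 20.2%. Between dissections 0 of the 4 were past the 2-fold line, against 2.44% of all genes. In lists this short, here and below, such counts are not read as results about a family. In clusters 6 and 8 Arnt2 averaged 21.5 and 24.1 CPM, and its highest mean was in cluster 4 (45.1 CPM), where Npas1 and Npas3 were near 0. Of 16 other bHLH-PAS genes 15 passed the rule of a read in at least 3 cells, and 10 had a read in over 20% of cells. The oxygen-regulated factor Hif1a (99.8%), the coactivator Ncoa3 (93.9%), the clock gene Per1 (88.6%) and the coactivator Ncoa1 (86.1%) were the most widespread. Clock was at 79.2%, Ncoa2 at 82.3%, Per3 at 76.1% and Ahr at 30.8%, and Npas2 and Npas4 were at 23.3% and 20.2%. Ncoa3 was the one gene of the list past the 2-fold line, higher in Principal DR (31.5 against 13.8 CPM, log2 1.13). The median of the list was 0.12 and that of all genes 0.01.

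Irx2 lay in clusters 3 and 9. In cluster 9, led by Grik1, Spp1 and Mbp, it averaged 55.7 CPM (36 of 44 cells; plate means 38.9 to 95.1), and in cluster 3, led by Sostdc1, Ceacam10 and Pth2r, 24.3 CPM (95 of 122 cells; plate means 15.4 to 40.3). These clusters held 79.9% of its positive cells and 88.0% of its signal. In clusters 4, 7, 10, 11 and 12 no cell of 271 had a read, so the share may be as high as 1.11%. Mbp is a myelin gene: 2 of the 44 cells of cluster 9 had reads of most genes of a glial marker list. Without such cells the Irx2 mean of cluster 9 was 56.9 CPM in 42 cells, and no glial gene was left among its 10 leading genes.

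Cluster 9 had no Principal DR cell and cluster 3 had 5 of them. Of those 5 cells 4 had a read of Irx2, at a mean of 18.5 CPM, against 91 of 117 All DR cells at 24.6 CPM. The other 6 Principal DR cells with Irx2 lay in clusters 1 (2 cells), 2 (1 cell), 5 (1 cell) and 8 (2 cells). The 10 Principal DR cells with Irx2 had 2 to 40 reads of it, and the 154 All DR cells 1 to 159. Cells of cluster 3 thus had similar shares in both dissections, though 5 cells give little precision.

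The genes nearest to Irx2 within plates were Mn1 (r = 0.42), a transcriptional coregulator, Chrna4 (0.41), a nicotinic receptor subunit, the adhesion molecule Alcam (0.40), Gabre (0.38) and Rgmb (0.34), a BMP co-receptor. Mn1 averaged 65.3 CPM in Irx2 cells and 17.2 CPM in the others, Chrna4 75.3 and 18.0 CPM, and Alcam 108 and 37.0 CPM. The r of Mn1, Chrna4, Gabre and Rgmb was above 0 on all 14 plates where Irx2 was found. The copine Cpne7 had a low r (-0.46), with 215 CPM in Irx2 cells and 500.0 CPM in the others. Irx2 was the gene with most negative relations: 22 genes had r of -0.3 or lower and 10 had r of at least 0.3.

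Of all listed genes, Pth2r (r = 0.37) and Prlhr, the prolactin-releasing hormone receptor (0.30), were nearest to Irx2. Prlhr entered as a marker of the median raphe type MR-3 named by the study, not as one of the 14 receptors. The study also places Irx2 in MR-2 and MR-3, so Prlhr was not listed independently of Irx2. Prlhr had a read in 15.9% of Irx2 cells and 1.92% of the others. With the call rule above (12 plates; 0.36% of genes called), Pth2r was called higher (30.5 against 5.02 CPM, log2 2.39), the one of 14 receptors. Gad1 was the one of 11 transmitter and peptide genes called lower: 0 of 164 Irx2 cells had a read, so the share may be as high as 1.83%, against 16.3% of cells without Irx2. Of the 10 serotonin identity genes En1, an Engrailed factor of the rostral hindbrain, was called lower, with a read in 24.4% of Irx2 cells and 82.3% of the others (5.14 against 22.9 CPM). En1 itself was higher in Principal DR (33.4 against 14.5 CPM, log2 1.15), with a read in 99.7% and 61.8% of cells. The list median of the transmitter and peptide genes was -1.14.

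Irx2 stood alone in its family. Of the 5 other Iroquois genes 2 passed the rule of a read in at least 3 cells: Irx1 had a read in 7 cells (0.701%) and Irx3 in 4 (0.400%). It was also set against Sox1. Of the 164 Irx2 cells, 18.9% (13.2 to 25.7) had a read of Sox1, against 49.7% of the others, and the share was lower on 11 of 12 plates. In All DR the shares were 16.2 and 45.6%. In Principal DR 6 of 10 Irx2 cells had Sox1 (60.0%, 26.2 to 87.8), next to 57.9% of the others, and the share was lower in Irx2 cells on the 1 plate that could be compared. The difference between dissections was not tested. The within-plate correlation of Irx2 with Sox1 was -0.21, the lowest of the 21 pairs. Irx2 and Npas1 met in 3 cells, or 1.83% of Irx2 cells against 10.7% of the others (lower on 10 of 12 plates, higher on 1).

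**Figure D4:**
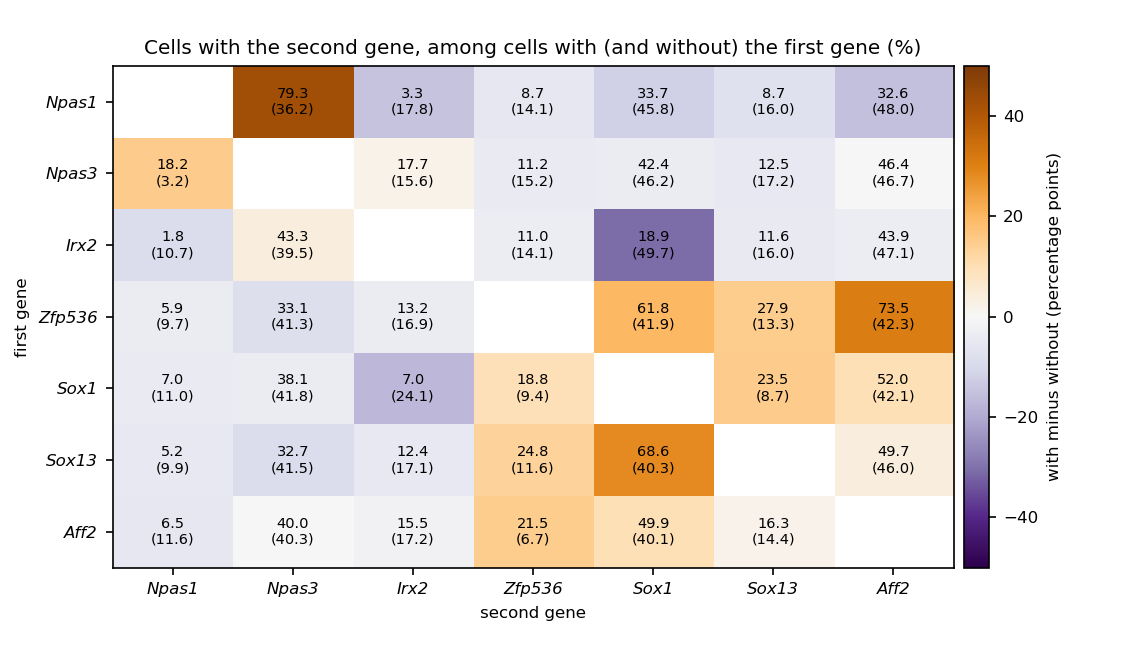
Share of cells (%) with a read of the second gene (columns) among cells with a read of the first gene (rows), with the share among cells without the first gene in parentheses, and their difference in percentage points as colour. The pairs with the largest excess are Npas1 with Npas3 (79.3 against 36.2), Zfp536 with Aff2 (73.5 against 42.3) and Sox13 with Sox1 (68.6 against 40.3), and the largest deficit is Irx2 with Sox1 (18.9 against 49.7).

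Zfp536 and Aff2 were the second pair. Of the 136 cells with Zfp536, 100 (73.5%, 65.3 to 80.7) had a read of Aff2, against 42.3% of the rest, higher on 10 of 11 plates, and their within-plate r was 0.25 (above 0 on 13 of 15 plates). The shares were 78.3 against 51.7% in Principal DR and 69.7 against 38.9% in All DR. Zfp536 cells also had Sox1 more often (61.8 against 41.9%, 10 of 11 plates).

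Zfp536 was highest in cluster 7, led by Smoc2, Plpp4 and Ret, at 19.6 CPM (57 of 76 cells; plate means 16.3 to 28.7). Cluster 9, which had the most Irx2, followed at 15.7 CPM (16 of 44 cells), and cluster 1, led by Npy2r, Sst and Tmeff2, at 5.73 CPM (40 of 175). These 3 clusters held 90.5% of its signal. In clusters 4, 5 and 12 no cell of 241 had a read, so the share may be as high as 1.24%. Aff2 had its maximum in cluster 7 too, 24.1 CPM (67 of 76 cells), but was found in every cluster: it averaged 14.1 CPM in cluster 9 and 11.5 CPM in cluster 10, and its lowest value was 1.09 CPM in the cDR-like cluster 12 (2 of 23 cells). In cluster 7 alone Aff2 had a read in 49 of 57 Zfp536 cells (86.0%) and 18 of 19 others (94.7%), and outside it in 51 of 79 (64.6%) and 347 of 844 (41.1%). In cluster 9 it had one in 9 of 16 Zfp536 cells (56.2%, 29.9 to 80.2) and 7 of 28 others (25.0%, 10.7 to 44.9). Over clusters 7 and 9 together the shares were 79.5% and 53.2%.

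The genes nearest to Zfp536 were Cnr1 (r = 0.48), the cannabinoid receptor of presynaptic terminals, the protocadherin Pcdh11x (0.46), the cell cycle gene Rprm (0.46), Rgs10 (0.40), a brake on G-protein signals, and the glypican Gpc5 (0.38). Cnr1 averaged 64.7 CPM in Zfp536 cells and 4.41 CPM in the others, and had a read in 61.8% and 17.8% of them. Pcdh11x averaged 102 and 11.8 CPM and Rprm 82.1 and 8.11 CPM. The r of Cnr1, Pcdh11x, Rprm and Rgs10 was above 0 on all 15 plates with Zfp536. A pair of adhesion and guidance genes had the lowest values, Gpc3 (-0.37; 44.4 against 89.4 CPM) and Sema6a (-0.36; 12.7 against 39.3 CPM). Of all listed genes the somatostatin receptor Sstr1 was next after Cnr1 (0.36, with a read in 25.0% of Zfp536 cells and 3.71% of the others). Sstr1 and Cnr1 entered as MR-3 markers named by the study, not from the list of receptors compared by the call rule.

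Aff2 had weaker relations. Nptx1 (r = 0.34), a neuronal pentraxin of synapses, averaged 32.7 CPM in Aff2 cells and 14.3 CPM in the others, followed by Gpc5 (0.32), the GDNF co-receptor Ret (0.30), Rprm (0.30) and Prmt8 (0.28). Gpc5 and Rprm were thus in the lists of both genes. Spock3 (-0.29) and the granule protein Chgb (-0.25) had the lowest r, and of the listed genes Pax5 (0.26) and Zfp536 (0.25) had the highest. Pax5, a paired-box factor, had a read in 39.4% of Aff2 cells and 12.9% of the others.

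By class, 100 cells had both Zfp536 and Aff2, 36 Zfp536 only, 365 Aff2 only and 498 neither. The genes compared were picked by their correlation with Zfp536 or Aff2 in these same cells, so a higher level with that factor follows from the choice. Cnr1, picked by Zfp536, had 61.7, 72.9, 4.23 and 4.54 CPM over these classes. Ret ran 97.0, 47.0, 16.0 and 5.66 CPM, and Nptx1 77.8, 45.0, 20.3 and 12.1 CPM. Both were highest with both factors and lowest with neither.

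Of the transmitter and peptide genes 1 of 11 was called for Zfp536 (11 plates; 0.458% of genes called), Pdyn, at 177 CPM in Zfp536 cells and 26.8 CPM in the others (log2 2.68), and no receptor was called. Cells with Npas1 and cells with Zfp536 thus stood on opposite sides of the rest in their Pdyn level. For Aff2 (16 plates) only 0.00784% of genes were called (2 genes), and none of the 11 transmitter and peptide, 14 receptor or 10 serotonin identity genes. The list medians of the transmitter and peptide genes were 0.70 for Zfp536 and 0.65 for Aff2.

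Of the 6 genes listed with Aff2, 5 had a read in more cells than Aff2 and Aff1 in fewer (9.31%). Aff4, a scaffold of the elongation complex, had a read in 99.1% of cells and Aff3 in 78.1%, and Fmr1, Fxr1 and Fxr2, the fragile X RNA-binding proteins, in 87.6, 98.1 and 97.3%. Of the 6 listed, Aff3 was the one past the 2-fold line, next to 2.44% of all genes. It was higher in All DR (22.3 against 10.3 CPM, log2 -1.04), with its highest mean in cluster 4 (48.5 CPM). In that cluster Aff2 was at 2.89 CPM, below its own 24.1 CPM in cluster 7. Of 7 genes listed for the retinoic acid pathway of Zfp536, 5 had a read in over 20% of cells: Rxrb (91.4%), the zinc finger gene Zfp219 (67.7%), Rxra (43.3%), Rxrg (37.6%) and Rara (26.0%). None of the 7 was past the 2-fold line, and the list median was -0.36 (all genes 0.01).

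**Figure D5:**
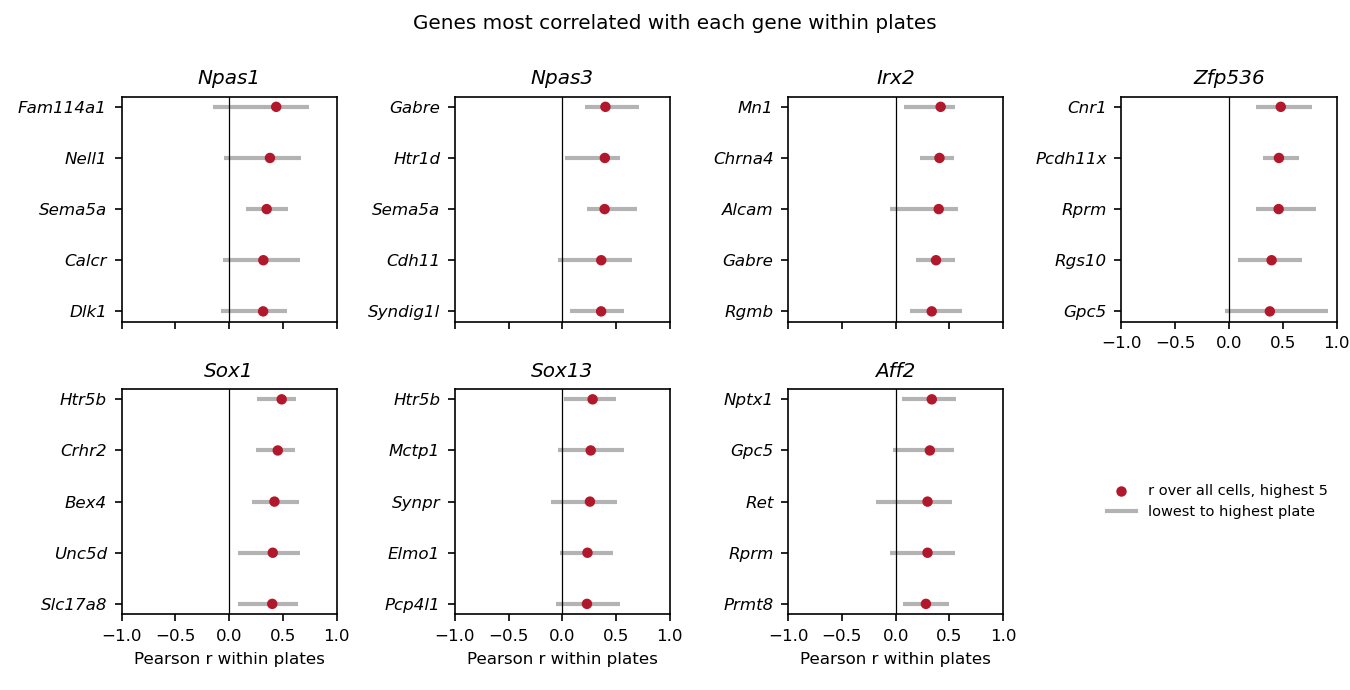
Pearson r of ln(CPM+1) within plates (horizontal axis, -1 to 1) between each of the 7 genes (panels) and the 5 genes with the highest r over 999 cells. Grey lines run from the lowest to the highest plate, and the points of Zfp536, Irx2 and Sox1 reach 0.40 or more for 3 to 5 genes, whereas those of Sox13 lie between 0.23 and 0.28.

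Sox1 and Sox13 formed the third pair. Of the 153 cells with Sox13, 105 (68.6%, 60.6 to 75.9) had a read of Sox1, against 40.3% of the others, higher on 12 of 13 plates. The difference was smaller in Principal DR (65.3 against 56.4%) than in All DR (70.2 against 33.9%), and this difference between dissections was not tested. Their within-plate r was only 0.17, though above 0 on 15 of 16 plates. Both genes are read a few times per cell. Cells with Sox13 had a median of 971462 reads on genes in All DR, against 854571 without it, but 751914 against 759937 in Principal DR. With every cell thinned to 250000 reads the shares were 60.0% and 35.5%.

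Sox1 was widespread, with low levels in 5 of the 12 clusters. It averaged 15.6 CPM in cluster 11, led by Crh and Wif1 (24 of 25 cells), 11.4 CPM in cluster 1 (78.9% of cells), 11.3 CPM in cluster 12, 11.0 CPM in cluster 7 and 10.2 CPM in cluster 5, led by Rorb, Wnt4 and Nefm. In clusters 3, 4, 6, 8 and 9 it averaged between 0.753 and 1.38 CPM. The clusters with most Npas1 and Irx2 were thus among those with least Sox1. Sox13 had a clear maximum in the cDR-like cluster 12, 12.3 CPM (19 of 23 cells, 82.6%, 61.2 to 95.0), followed by 3.90 CPM in cluster 7 and 3.75 CPM in cluster 11, and no cell of the 111 in cluster 4 had a read, so the share may be as high as 2.70%. In clusters 11 and 12 together Sox1 had a read in 23 of 29 Sox13 cells (79.3%) and 18 of 19 others (94.7%). Outside them it had one in 82 of 124 Sox13 cells (66.1%) and 323 of 827 others (39.1%).

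The genes nearest to Sox1 were Htr5b (r = 0.49), a serotonin receptor, Crhr2 (0.45), Bex4 (0.42), the netrin receptor Unc5d (0.41) and Slc17a8 (0.40), which encodes the vesicular glutamate transporter Vglut3. All 5 were above 0 on all 16 plates. Htr5b averaged 53.4 CPM in Sox1 cells and 14.8 CPM in the others, Crhr2 45.0 and 8.87 CPM, and Slc17a8 153 and 48.5 CPM. Brinp1 (-0.32; 37.3 against 84.6 CPM) and Arhgap36 (-0.32; 117 against 287 CPM) had the lowest r. Sox1 had the most positive relations of the 7 genes, 27 genes with r of at least 0.3 and 4 with -0.3 or lower.

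For Sox13 no gene reached 0.3 in either direction, so its list is a weak one. Htr5b (0.28) came first again, with 64.2 CPM in Sox13 cells and 26.2 CPM in the others, followed by Mctp1 (0.26), Synpr (0.26), Elmo1 (0.23) and Pcp4l1 (0.23). Kcnk9, a leak potassium channel, and Gch1, which makes the cofactor of Tph2, had the lowest r (-0.26 and -0.24). Tacr3, the neurokinin B receptor, was the second of the listed genes (0.26), with a read in 14.4% of Sox13 cells and 4.14% of the others.

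With the call rule above, 0.0901% of genes were called for Sox1 (16 plates) and 0.0431% for Sox13 (13 plates). Of 14 receptors, Htr5b and Crhr2 were called higher for Sox1 (log2 1.78 and 2.22) and Htr5b for Sox13 (1.26), and Pth2r was called lower for both (-2.58 and -1.67). Pth2r averaged 1.72 CPM in Sox1 cells and 15.2 CPM in those without, the opposite side from Irx2 and Npas3 cells. No transmitter, peptide or serotonin identity gene was called for either. Htr5b, Crhr2 and Slc17a8 were picked by their correlation with Sox1 in these same cells, and Htr5b also with Sox13. Higher levels with those factors therefore follow from the choice. By class, Htr5b was at 65.4 CPM in the 105 cells with both Sox genes, 49.7 CPM in the 341 with Sox1 only, 61.7 CPM in the 48 with Sox13 only and 10.3 CPM in the 505 with neither. Crhr2 was at 52.0, 42.9, 26.9 and 7.16 CPM and Slc17a8 at 184, 144, 125 and 41.3 CPM in the same order.

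Among their relatives, the SoxB gene Sox14 had a read in 15.6% of cells and was higher in Principal DR (7.13 against 2.10 CPM, log2 1.39). It was the one of 4 listed SoxB genes past the 2-fold line, next to 2.44% of all genes. Sox14 was found in 109 of 132 cells of cluster 2, led by Prph, Trh and Oas1e, at a mean of 17.1 CPM. It was also found in 31 of 36 cells of cluster 10, led by Arhgdib, Trh and Asb4, at 29.3 CPM. Sox1 averaged 6.08 and 5.12 CPM in these clusters, against its own maximum of 15.6 CPM in cluster 11. The progenitor factor Sox2, listed with Sox14, had a read in 9 cells (0.901%). Of the SoxD genes Sox5 had a read in 37.7% of cells, with its highest mean in cluster 6 (17.9 CPM), and Sox6 in 3 cells. Of 11 other Sox genes 10 passed the rule of a read in at least 3 cells, and Sox11 (73.3%) and Sox4 (32.0%), a pair of SoxC factors, had a read in over 20% of cells. None of these 10 was past the 2-fold line.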

How the data were processed

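The deposited table holds CPM per gene and cell, which the authors made from Smart-seq2 reads with bcl2fastq 2.19.0.316, STAR 2.6.1a on mm10 and HTSeq 0.11.2 (unstranded, intersection-nonempty). They removed Y-linked genes and cells under 300 genes or 50000 reads. Whole reads were recovered from the CPM steps (100% of values within 0.001 of a whole number), so read counts per cell are known. All 999 cells in the table matched a label, 0 columns were left unmapped, and 537 labelled cells were not analysed here. At least 1 read of Tph2 was also required of a cell, which all 999 met. No tests were run, since no label names an animal. Genes with a read in fewer than 3 cells were left out, and the pseudocount on mean CPM was 1. Correlations were Pearson's r of ln(CPM+1) after removing plate means, on the 999 cells. Plates with at least 5 cells on each side entered the comparisons of cells with and without a gene. Clusters came from Seurat 5.3.0 in R 4.3.3 (2000 variable genes, 20 components, 20 neighbours, resolution 1, seed 1). The study names both a selection of variable genes and a projection of all genes. Variable genes were used here because earlier clusters of these data from all genes followed plates, so this choice was made with results known. The remaining steps used Python 3.11.15, numpy 2.4.6, scipy 1.17.1, pandas 2.3.3 and matplotlib 3.10.9.

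The 7 genes and the gene lists were chosen with earlier results of these data known. Besides the 7, the text names for each of them the 5 genes of highest and the 2 of lowest r, the 2 listed genes of highest r, family genes with a read in over 20% of cells or the highest of their list, listed transmitter, peptide and receptor genes with a log2 difference of at least 1 in the same direction on every plate, the 3 leading genes of each cluster (mean over 20 CPM in it) and overlapping genes. Some genes that this rule picks are not reported here. Irx1, Irx3, Sox2, Sox6, En1 and the markers Tph2, Fev and Slc6a4 were named after their values were seen. Promoters are from RefSeq (7 of 7 genes matched). The alternatives were other read, CPM and depth thresholds, pseudocounts, plate weights, correlation measures, clustering settings and leaving out each plate, and, chosen after seeing the data, leaving out cells with reads of other cell types. In simulated data, the correlation step found 200 of 200 planted pairs among 4000 genes, and these pairs had a median r of 0.60. The 7 genes had means of 1.30 to 8.67 CPM, and their highest r was 0.49 (Sox1 with Htr5b). The recovery of planted pairs therefore does not show how well the weaker correlations of the 7 genes are found. The comparison of dissections placed 200 of 200 genes with a planted 4-fold change past 2-fold among 25522. Genes of very low mean received no planted change, and the simulated cells had no differences between plates. This recovery was therefore largely set by the size of the planted change. It does not show how well smaller differences are found, or differences beside a spread between plates.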

Additional observations from a re-analysis of the deposited data

How the results depend on the processing

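No paired analysis was possible because the labels give replicate numbers no meaning beyond accession order and no animal is named. Read depth limits Npas3, Sox1, Sox13 and Aff2 most. With at least 5 reads as the threshold the shares of cells were 25.1% for Npas3, 10.9% for Zfp536, 33.8% for Sox1, 7.81% for Sox13 and 32.9% for Aff2. With at least 10 CPM they were 7.41% for Npas1, 17.6% for Npas3, 14.1% for Irx2, 9.31% for Zfp536, 22.8% for Sox1, 4.30% for Sox13 and 24.7% for Aff2. With cells thinned to 250000 reads they were 32.8% for Npas3, 38.4% for Sox1, 11.6% for Sox13 and 39.6% for Aff2. The thinned shares of the other 3 genes stayed inside their intervals.

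The Irx2 log2 difference between dissections was -3.62 with a pseudocount of 0.1 and -0.80 with 10, the latter short of 2-fold. With at least 5 reads, Aff2 was found in 59.6% of Zfp536 cells, and Sox1 in 56.4% of Sox13 cells (60.0% when thinned). With plate and cluster means both removed, r fell to 0.13 for Npas3 with Gabre, 0.13 for Irx2 with Mn1, 0.0855 for Sox1 with Htr5b, 0.12 for Sox13 with Htr5b and 0.17 for Aff2 with Nptx1. For Npas1 it fell to 0.078 with Nell1, 0.034 with Sema5a and 0.082 with Calcr, and it changed sign with Dlk1 (-0.0460). The r of Npas1 with Fam114a1 changed by less than its SD between plates. That SD was 0.26, the widest of the 5 genes nearest to Npas1, so a large fall would also have passed. This alternative takes out differences between clusters by construction. On Principal DR plates alone r was 0.22 for Irx2 with Mn1 and 0.35 for Sox1 with Htr5b, and the cause was not tested. With all genes in the principal components, the highest cluster had a read of Zfp536 in 47.5% of cells and of Aff2 in 45.0%, and it was a different cluster of 40 cells. Leaving out each plate in turn kept every share within its interval and every difference between dissections on its side of 2-fold: the Irx2 log2 difference ranged from -2.87 to -2.48, and Npas3 in Npas1 cells from 77.9 to 80.2%. Some correlations near 0.3 crossed it: Npas1 with Dlk1 ranged from 0.298 to 0.334, Aff2 with Gpc5 from 0.284 to 0.336, Aff2 with Ret from 0.267 to 0.311 and Aff2 with Rprm from 0.26 to 0.32. The 5 genes nearest to Npas1 shared as few as 3 with those over all plates. Without the cells with reads of other cell types, no share of all cells, difference between dissections, overlap or cluster level was moved. Over all alternatives, apart from single plates, 35 of 56 top-5 gene lists kept at least 4 genes. On Principal DR plates alone, 1 of the 5 genes stayed for Npas1, Irx2, Zfp536 and Sox1, and 2 for Npas3 and Sox13. With plate and cluster means removed, 0 stayed for Irx2 and Sox13, 1 for Npas1 and Sox1, 2 for Npas3 and 3 for Zfp536. Aff2 kept at least 4 in both. With Spearman ranks, 2 stayed for Zfp536 and 3 for Npas1 and Sox13, and the other lists kept at least 4.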
